A study of Mus musculus with 6 samples.

Results

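The subunits of oxidative phosphorylation were followed in cultured mouse cerebellar granule neurons (CGNs) treated with DMSO (n = 3) or with GSK-126 (n = 3), an inhibitor of the H3K27 methyltransferase EZH2. The members were chosen by gene symbol: subunits of respiratory complexes I to IV and of ATP synthase (complex V), without pseudogenes named with -ps. The rule found 98 genes of the 55341 symbols listed for each library, 85 encoded in the nucleus and 13 in mitochondrial DNA. Both groups were cultures of granule neuron precursors that had been isolated on Percoll from CD1-IGS pups, with litters pooled for each replicate, and both had received AraC, which blocks the division of cells that still cycle. GSK-126 was added early in culture and RNA was taken days later. The labels give the agent and the replicate number, but neither a dose nor a day, and they name the source as cerebellum although the sample titles name CGNs.

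Complexes I to IV pass electrons from NADH and succinate to oxygen, all but complex II pump protons across the inner mitochondrial membrane, and ATP synthase uses the proton gradient to make ATP. Complex II is built from nuclear genes alone, whereas the other complexes combine subunits imported from the cytosol with core subunits that are transcribed from the circular mitochondrial genome as long polycistronic RNAs and then cut at the tRNAs. Neurons draw most of their ATP from this pathway. EZH2 deposits H3K27me3 at repressed promoters, so the comparison asked whether transcripts of a constitutive energy pathway shifted when that activity was inhibited.

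The counted level of a mitochondrial subunit depends on whether its sequence can be told from copies of mitochondrial DNA that lie in the nuclear genome. On chromosome 1, minus strand (GRCm38, GENCODE M21), 7 annotated genes copy mitochondrial subunits, between Gm28439 at chr1:24611535-24612410 and Gm29216 at chr1:24615706-24616197. Positions are counted from 1 at the first base of the mitochondrial gene, and the mitochondrial base is given first. The sequences below are shown because they decide which reads could be assigned: the first 120 bases of mt-Nd3 (NADH dehydrogenase subunit 3, chrM:9459-9806, plus strand) beside its copy Gm28438, and bases 1054 to 1173 of mt-Co1 (cytochrome c oxidase subunit 1, chrM:5328-6872, plus strand) beside the start of its copy Gm29216. Capitals mark the bases that differ.
mt-Nd3: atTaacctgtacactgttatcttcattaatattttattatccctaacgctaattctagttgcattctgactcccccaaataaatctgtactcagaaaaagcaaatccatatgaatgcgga
Gm28438: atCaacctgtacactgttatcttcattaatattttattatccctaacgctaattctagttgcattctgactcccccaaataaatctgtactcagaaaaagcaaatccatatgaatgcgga
mt-Co1: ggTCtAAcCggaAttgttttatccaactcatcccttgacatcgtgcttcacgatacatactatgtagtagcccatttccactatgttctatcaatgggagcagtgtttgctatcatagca
Gm29216: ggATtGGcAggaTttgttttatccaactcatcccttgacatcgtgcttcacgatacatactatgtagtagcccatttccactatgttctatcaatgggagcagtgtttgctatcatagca
Over the 345 bases that the copy covers, mt-Nd3 and Gm28438 differed by the single substitution T3C. The copies of mt-Co2, mt-Co3, mt-Atp6 and mt-Nd4l were identical to the mitochondrial gene over every base they cover (681, 783, 678 and 294 bases), and so was the copy of mt-Nd4 over the first 876 of its 1378 bases. The copy of mt-Co1 begins at base 1054 of 1545 and differed by T1056A, C1057T, A1059G, A1060G, C1062A and A1066T, all within its first bases. No annotated copy covers mt-Cytb, mt-Nd1, mt-Nd5 or mt-Nd6.

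Counting followed this division. The share of 100-base stretches of a transcript that also occur in another annotated gene was 0% for mt-Cytb, mt-Nd1, mt-Nd5 and mt-Nd6, 3.19% for mt-Nd2, 30.8% for mt-Co1 and 60.8% for mt-Nd4, and these 7 genes reached mean levels from 1277 to 5389 CPM per kilobase of exon over the 6 libraries (CPM being counts scaled to a common library size). For mt-Co2, mt-Co3, mt-Atp6, mt-Nd3 and mt-Nd4l the share ran from 97.6% to 99.9%, and their levels ran from 0.742 to 7.98 CPM per kilobase. mt-Co1 held 82806, 65836 and 50993 reads in DMSO replicates 1, 2 and 3 and 117118, 81109 and 59397 in GSK-126 replicates 1, 2 and 3. mt-Co2, which encodes the neighbouring catalytic subunit of the same complex, held 45, 50 and 47 against 46, 60 and 42. Reads that align to more than one place were not assigned in these tables, so the levels of these 5 genes are not a measure of their RNA, and each of the 7 copies likewise held at most 123 reads in any library. mt-Atp8 was listed at 0 in all 6 libraries although no annotated copy holds it. It lies between mt-Co2 and mt-Atp6, in an interval of mitochondrial DNA whose flanks are copied on chromosome 1, and the cause of its 0 was not tested. mt-Nd6 is encoded on the opposite strand from the other 12, and the strand setting of the count is not given in the sources used here, so its reads cannot be told from antisense RNA of the mitochondrial genome.

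**Figure D1:**
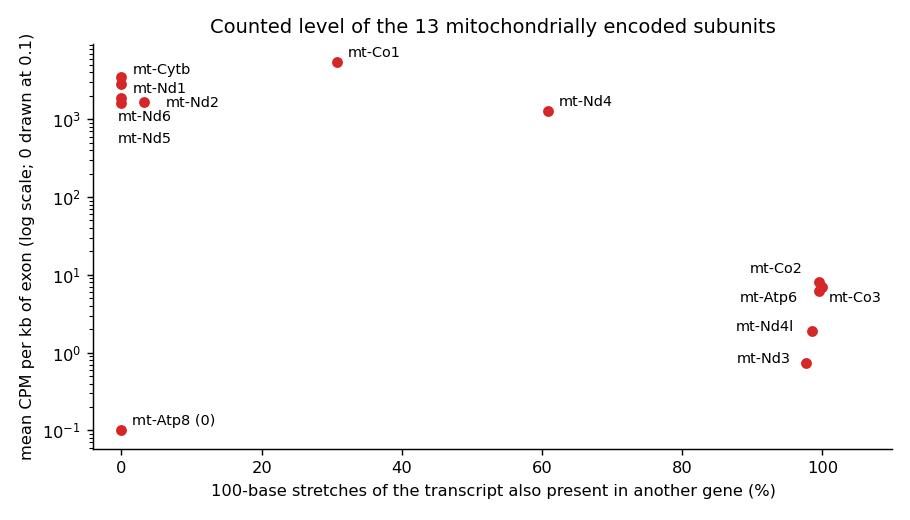
Mean level over 6 libraries (CPM per kilobase of exon, log scale, with 0 drawn at 0.1) of the 13 mitochondrially encoded subunits against the percent of 100-base stretches of each transcript that also occur in another gene. The 7 genes with sequence of their own lie between 1277 and 5389, the 5 genes that are copied almost whole lie at 7.98 or below, and mt-Atp8 is at 0.

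Of the 98 members, 86 reached 1 CPM in at least 3 of 6 libraries and were tested, 76 nuclear and 10 mitochondrial, and 84 of these reached it in all 6 libraries. None of them passed through 1 group alone. The 3 mitochondrial genes below this limit were mt-Atp8, mt-Nd3 and mt-Nd4l. The 9 nuclear genes below it were of different kinds. Atp5a1, Ndufs3 and Uqcrc1, which encode the alpha subunit of ATP synthase, a core subunit of complex I and a core protein of complex III, were listed at 0 in all 6 libraries. Both neighbouring protein-coding genes of Atp5a1 (Haus1 and Pstpip2) and of Ndufs3 (C1qtnf4 and Kbtbd4), and Tmem89 beside Uqcrc1, were listed at 0 as well, whereas Col7a1 on the other side of Uqcrc1 had 1914 reads over the 6 libraries. All 3 subunits belong to the core of complexes whose other subunits were abundant, so a value of 0 is not read as absence of the transcript. The other 6 were tissue-restricted forms of complex IV subunits and a processed copy: Cox4i2, Cox6a2, Cox6c2, Cox7b2, Cox8b and Cox8c.

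Complex IV has paired forms of several subunits, a general form and one known from muscle, lung, testis or other tissues, and the libraries held almost only the general forms. Levels are compared here as mean CPM per kilobase of exon over 6 libraries. Cox4i1, the general form of subunit 4, stood at 203, and Cox4i2, the form known from lung, at 0.507. Cox6a1 stood at 304 and the heart and muscle form Cox6a2 at 0.991. Cox6b1 stood at 165 and the testis form Cox6b2 at 6.04. Cox7a2 stood at 102, the related Cox7a2l, which promotes assembly of complexes III and IV into supercomplexes, at 49, and the muscle form Cox7a1 at 3.03. Cox7b stood at 49.1 and Cox7b2 at 0.0739. Cox8a stood at 354, Cox8b at 0.705 and Cox8c was listed at 0. Cox4i2 had 10, 4 and 4 reads with DMSO and 2, 0 and 1 with GSK-126. Cox8b had 0, 0 and 1 reads against 10, 1 and 4. Both sets of counts lie at or near the floor of 3 reads used for a gene without signal, and no fold is given. Of 12 striated muscle genes, 3 reached the limit for testing, and their 12 levels summed to between 7.82 and 31.7 CPM per library.

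Ndufa4, long listed with complex I and later placed in complex IV, stood at 121 CPM per kilobase and its relative Ndufa4l2, known as a target of hypoxia signalling, at 2.37. The c subunit of the ATP synthase ring is one protein encoded by 3 genes, and Atp5g3 stood at 89.96, Atp5g2 at 43.3 and Atp5g1 at 15.6. For Atp5g2, 86.4% of 100-base stretches also occur in pseudogenes, so its level is a lower value of uncertain size. Exon length here joins the exons of every annotated transcript of a gene. It can far exceed the principal transcript (2239 against 1142 bases for Sdhb, 2181 against 723 for Atp5g3), so the order within a complex rests on this choice. By this measure, the highest levels belonged to Ndufa4 and Ndufc2 (80.5) in complex I, Sdhd (63) and Sdha (48.1) in complex II, Uqcr10 (98.1) and Uqcr11 (73.4) in complex III, Cox8a and Cox6a1 in complex IV, and Atp5b (212), the catalytic beta subunit, and Atp5c1 (97.8) in ATP synthase. Every one of them stood below the lowest of the 7 mitochondrial genes with sequence of their own.

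The libraries held 8058760 to 12047837 reads over genes. Markers of granule neurons were present in all of them, with summed levels of 6870 to 9689 CPM with DMSO and 4876 to 7840 CPM with GSK-126 over 15 genes, but so were markers of other cells: the 9 fibroblast and meningeal genes summed to 8305 to 11230 CPM and 11296 to 14130 CPM, and the 11 astrocyte genes to 2961 to 8280 CPM and 2970 to 8410 CPM. In bulk RNA, fewer cells of a type and less RNA per cell cannot be told apart. DMSO replicate 1 had the largest share of unaligned reads, 5.03% against 1.74% to 3.48% in the other 5, and the fewest genes above 0, 21943 against 22384 to 23432. It was also the library in which most nuclear subunits stood lowest, and the part of these measures in the subunit values was not tested.

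No subunit passed the test for a difference between GSK-126 and DMSO when all 3 pairs were used. Across 16685 genes, 603 differed between the groups at an adjusted p-value of 0.05 (3.61%; edgeR's quasi-likelihood test with the replicate number as a block and Benjamini-Hochberg adjustment), 372 higher and 231 lower. Of the 76 nuclear subunits 0 passed, with 1 at an unadjusted p under 0.05, and of the 10 mitochondrial subunits 0 passed, with 0 at an unadjusted p under 0.05. Of all genes, 16.5% lay under that unadjusted level. The median log2 fold change was -0.03 for the nuclear subunits, 44 negative and 32 positive, 0.16 for the mitochondrial subunits, 9 of 10 positive, and -0.00 for all genes tested. The 95% interval of the fold change lay within 1.5-fold in either direction for 53 of 76 nuclear and 7 of 10 mitochondrial subunits, and within 2-fold for 73 and 9. A p-value above the threshold does not show that levels were equal, and these intervals give the sizes that remain possible. DESeq2 and limma also called 0 of the 86.

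**Figure D2:**
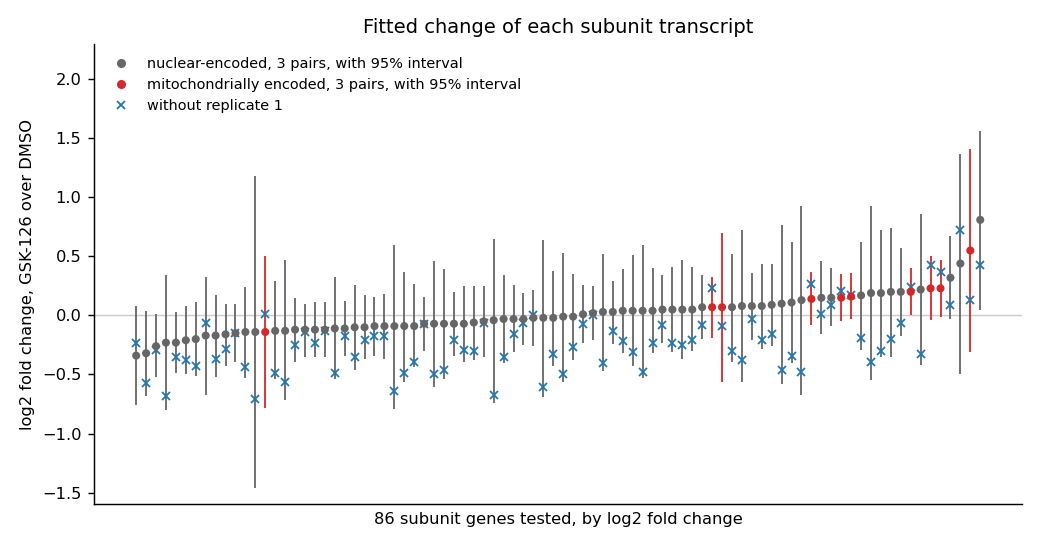
Log2 fold change (GSK-126 over DMSO) of the 86 subunit genes tested, in order of size, with 95% intervals from the fit over 3 pairs, nuclear genes in grey and mitochondrial genes in red. Crosses give the value without replicate 1, and most nuclear genes lie lower there (71 of 76 negative) than with 3 pairs (44 of 76 negative).

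Complex I (NADH dehydrogenase) had 36 nuclear genes tested, and their log2 fold changes ran from -0.34 to 0.44 around a median of -0.06. Ndufb2, an accessory subunit, stood lowest. Its levels were 17.1, 19.6 and 13.4 CPM with DMSO and 11.6, 14.4 and 13.3 with GSK-126, a log2 fold change of -0.34 (SE 0.192, adjusted p = 0.418). Every pair was lower with GSK-126, but GSK-126 replicate 2 lay above DMSO replicate 3. Ndufs8, which carries iron-sulphur clusters near the end of the electron path, measured 59.3, 44.6 and 54 against 52.1, 37.4 and 43.1 CPM, a log2 fold change of -0.26 (SE 0.121, adjusted p = 0.325), with all pairs lower and the groups overlapping. Ndufa6 and Ndufa4l2 stood highest. Ndufa6 measured 29.2, 43.8 and 46.2 against 50.5, 42.6 and 53.3 CPM, 0.32 on the log2 scale (SE 0.161, adjusted p = 0.36). Ndufa4l2 was near the detection limit, at 1.95, 1.99 and 2.47 against 1.74, 3 and 4.43 CPM, and its log2 fold change of 0.44 had an SE of 0.427. Ndufb5 was the sole nuclear member whose groups did not overlap, at 73.1, 69.2 and 69.1 against 66.3, 63.9 and 60.4 CPM, whereas 10.8% of all genes tested had groups that did not overlap. Its log2 fold change was -0.15 (SE 0.112, adjusted p = 0.566), and 12.3% of its exons overlap Mrpl47 on the other strand.

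Complex II (succinate dehydrogenase), which also serves the tricarboxylic acid cycle, was the steadiest of the 5 complexes. Sdhb, its iron-sulphur subunit, measured 83.8, 71.1 and 81.5 CPM with DMSO and 81.3, 72.6 and 79.3 with GSK-126, a log2 fold change of -0.02 with a 95% interval from -0.26 to 0.22. Sdhc, a membrane anchor, measured 109, 101 and 107 against 114, 102 and 105, with an interval from -0.21 to 0.25. The flavoprotein Sdha (0.03) and the second anchor Sdhd (0.07) had log2 fold changes as small, and the interval of each of the 4 lay within 1.5-fold. The SD of log2 CPM over the 6 libraries had a median of 0.118 over these genes, against 0.27 over all nuclear subunits and 0.292 over all genes tested.

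Complex III (cytochrome bc1) had 7 nuclear genes tested and log2 fold changes from -0.13 to 0.17. Uqcrh, the hinge protein, measured 61, 109 and 105 CPM with DMSO and 93.9, 73.5 and 78.6 with GSK-126, a log2 fold change of -0.13 (SE 0.191). Here DMSO replicate 1 was the lowest of the 6 libraries, and the other 2 DMSO libraries were the highest. Uqcrq, a small subunit, was also lowest in DMSO replicate 1, at 51.8, 101 and 79.9 against 95.3, 68.1 and 91.1 CPM (0.17, SE 0.207). The larger subunits were more even. The core protein Uqcrc2 measured 129, 148 and 130.2 against 122, 136 and 117 CPM (-0.12, SE 0.103), and the Rieske iron-sulphur protein Uqcrfs1 82.3, 100.3 and 100.3 against 93.2, 90.7 and 101 CPM (0.01, SE 0.113).

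Complex IV (cytochrome c oxidase) had the widest range among its 13 genes tested, from -0.23 to 0.81. The value of 0.81 was that of Cox6b2, the only member under an unadjusted p of 0.05 (SE 0.345, adjusted p = 0.267). Its levels were 1.72, 2.49 and 10.6 CPM with DMSO and 5.98, 2.28 and 17 with GSK-126. The spread within each group exceeded the difference between them, replicate 3 was the highest library in both groups, and pair 2 went the other way (-0.12 on the log2 scale, against 1.67 and 0.67). Cox7a2l was the sole nuclear member higher in all 3 pairs, at 69.9, 62 and 73.9 against 84.2, 65.3 and 79.6 CPM (0.15, SE 0.112, adjusted p = 0.559). Cox8a, a small membrane subunit, ran from 139 CPM in DMSO replicate 1 to 349 in DMSO replicate 2, with 238 in DMSO replicate 3 and 222, 147 and 219 with GSK-126 (-0.23, SE 0.261). Cox7a2 measured 88.2, 120.04 and 103 against 89.2, 90.6 and 84.1 CPM (-0.23, SE 0.118, adjusted p = 0.374). Cox4i1 measured 241, 386 and 350.4 against 344, 274 and 289 CPM (-0.09, SE 0.162), and Cox7a1, at 4 to 24 reads per library, -0.14 with an interval from -1.46 to 1.18.

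ATP synthase had 16 nuclear genes tested, from -0.32 to 0.22. Atp5b measured 835, 1079 and 902 CPM with DMSO and 892, 892 and 788 with GSK-126, with an interval of the log2 fold change from -0.35 to 0.11. Atp5g1 stood lowest, at 68.4, 95.9 and 91.3 against 78, 53.9 and 73 CPM (-0.32, SE 0.165, adjusted p = 0.38), followed by Atp5s, named for the coupling factor of ATP synthase, at 12.6, 9.35 and 7.54 against 9.8, 7.81 and 8.29 CPM (-0.17, SE 0.228). The other c-subunit genes had values of 0.08 (Atp5g2) and -0.03 (Atp5g3). Atp5mpl and Atp5e stood highest and were both small subunits with short transcripts. Atp5mpl measured 17.4, 50.6 and 50.2 against 47.2, 31.7 and 49.8 CPM (0.22, SE 0.292). Atp5e, the epsilon subunit of the catalytic head, measured 32.8, 79.5 and 92.7 against 76.4, 57.3 and 84.5 CPM (0.19, SE 0.245). In both, DMSO replicate 1 lay far below every other library.

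All 7 mitochondrial subunits with sequence of their own had positive log2 fold changes, from 0.07 to 0.23. mt-Cytb, the catalytic subunit of complex III, measured 4409, 3854 and 2798 CPM with DMSO and 4767, 4644 and 3236 with GSK-126, 0.20 on the log2 scale (SE 0.0911, adjusted p = 0.309). It was higher in every pair while the groups overlapped, since replicate 3 was low in both. mt-Co1 measured 9519, 8206 and 6009 against 9732, 9743 and 6747 CPM (0.15, SE 0.0907), and mt-Nd1 3098, 2739 and 1904 against 3466, 3092 and 2116 CPM (0.16, SE 0.0902), also higher in every pair. The other 4 were lower in pair 1 and higher in pairs 2 and 3. mt-Nd4 measured 2085, 1640 and 1157 against 2040, 2218 and 1417 CPM (0.23, SE 0.108, adjusted p = 0.317), and mt-Nd5 4111, 2478 and 1762 against 3678, 3436 and 2290 CPM (0.23, SE 0.122, adjusted p = 0.388). mt-Nd2 measured 2275, 1604 and 1144 against 2131, 1972 and 1342 CPM (0.14, SE 0.105), and mt-Nd6 1430, 842 and 639 against 1198, 1045 and 709.98 CPM (0.07, SE 0.117). In all 7 the library of DMSO replicate 3 was the lowest of the 6. The 3 tested genes that are copied almost whole had wider errors, mt-Atp6 at 0.55 (SE 0.393), mt-Co3 at 0.07 (SE 0.288) and mt-Co2 at -0.14 (SE 0.291), and rest on reads that a copy could share.

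Counted together, the mitochondrial subunits took 2.73%, 2.13% and 1.55% of all reads over genes with DMSO and 2.7%, 2.6% and 1.78% with GSK-126. The nuclear subunits took 0.572%, 0.823% and 0.748% against 0.72%, 0.622% and 0.673%. Both are partial sums. The 7 mitochondrial genes with sequence of their own gave 99.9% or more of the mitochondrial reads in each library. Atp5a1, Ndufs3 and Uqcrc1, listed at 0, add nothing to the nuclear sum. These sums describe the libraries and were given no test. Within pairs 1, 2 and 3 the mitochondrial share changed by -0.02, 0.29 and 0.20 on the log2 scale, and the nuclear share by 0.33, -0.40 and -0.15. The reads of mitochondrial subunits per read of nuclear subunits were 4.78, 2.59 and 2.07 with DMSO and 3.75, 4.18 and 2.64 with GSK-126, so the ratio fell in pair 1 and rose in pairs 2 and 3, and DMSO replicate 1 had the highest ratio of the 6 libraries. The mitochondrial ribosomal RNAs, which are not members, took 0.126% to 0.2% of reads after poly(A) selection.

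**Figure D3:**
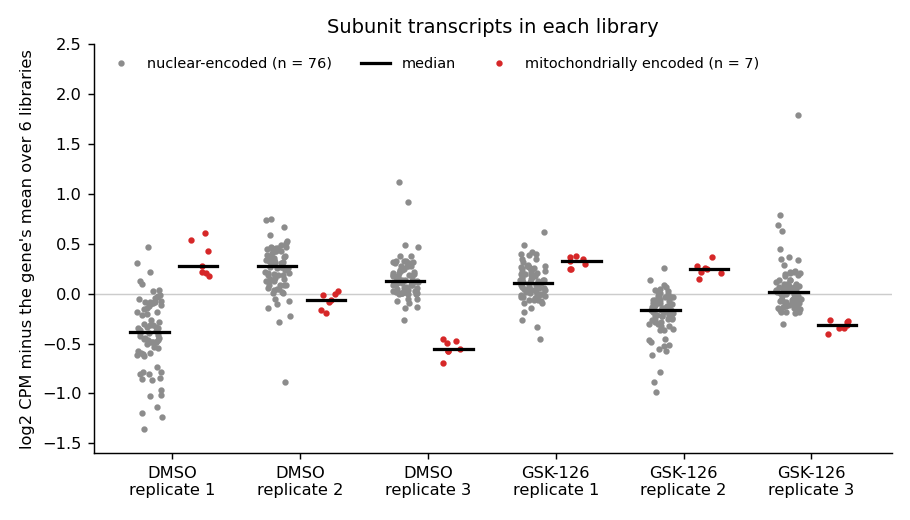
Log2 CPM of each subunit gene minus its mean over the 6 libraries, by library, for 76 nuclear genes (grey) and the 7 mitochondrial genes with sequence of their own (red), with medians as black bars. Nuclear genes lie lowest in DMSO replicate 1 (median -0.38) and highest in DMSO replicate 2 (0.28), and mitochondrial genes lie lowest in the replicate 3 libraries of both groups (-0.55 and -0.31).

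The nuclear subunits stood higher together in 1 pair and lower together in another. Their median log2 ratio of GSK-126 to DMSO was 0.50 in pair 1, where 66 of 76 were higher, -0.43 in pair 2, where 4 were higher, and -0.10 in pair 3, where 21 were higher, while the median over all genes tested lay between -0.00 and 0.00 in each pair. In all, 64 of 76 (84.2%) were higher in pair 1 and lower in pair 2, against 22.7% of all genes tested. By contrast, 6 of 76 (7.89%) went the same way in all 3 pairs, 1 up (Cox7a2l) and 5 down (Ndufb2, Ndufb5, Ndufs1, Ndufs8 and Uqcrc2), against 38.7% of all genes. The 7 mitochondrial genes showed the other pattern, with medians of -0.03, 0.30 and 0.21. Of the nuclear genes, 51 were lowest in DMSO replicate 1 and 46 were highest in DMSO replicate 2, so both ends of the range were control libraries. The genes share these libraries, and the counts describe them without a test.

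By complex, the median ratios in pairs 1, 2 and 3 were 0.48, -0.45 and -0.10 for complex I, 0.62, -0.57 and -0.18 for complex III, 0.65, -0.56 and -0.12 for complex IV, and 0.40, -0.35 and -0.10 for ATP synthase. Complex II stood apart with 0.21, -0.02 and -0.07. The medians of the other 4 complexes thus had the same signs and order in the 3 pairs, and those of complex II, whose transcripts run from 1142 (Sdhb) to 3171 bases (Sdhc), lay nearest 0.

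**Figure D4:**
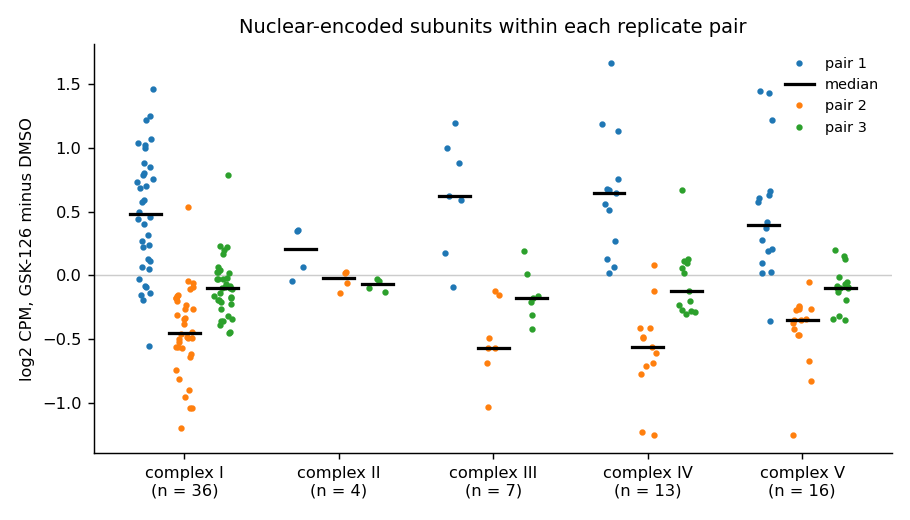
Log2 ratio of GSK-126 to DMSO within each replicate pair for the nuclear subunits of each complex, with medians as black bars. Complexes I, III, IV and V lie above 0 in pair 1 (medians 0.40 to 0.65) and below 0 in pair 2 (medians -0.57 to -0.35), and the complex II medians lie between -0.07 and 0.21.

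The size of a subunit's swing went with the length of its transcript. Among the 30 nuclear subunits with a principal transcript under 700 bases, the median ratios in pairs 1, 2 and 3 were 0.77, -0.56 and -0.13. Among the 16 between 1000 and 1600 bases they were 0.22, -0.20 and -0.04, and among the 13 of 1600 bases or more 0.07, -0.24 and -0.08. For comparison, the 964 genes of all kinds under 700 bases had medians of 0.09, -0.05 and 0.00. The 1983 genes of all kinds between 1000 and 1600 bases had 0.14, -0.09 and -0.02, and the 12890 of 1600 bases or more -0.03, 0.01 and 0.00. Between 700 and 1000 bases the medians were 0.51, -0.49 and -0.16 over 17 nuclear subunits and 0.22, -0.11 and 0.03 over 848 genes of all kinds. Over the 76 nuclear subunits, which share the same 6 libraries, Spearman's rho between length and the ratio was -0.66 in pair 1, 0.51 in pair 2 and 0.07 in pair 3, and over 16685 genes it was -0.19, 0.12 and 0.05. With GC content, rho was 0.31, -0.09 and -0.01 over the 76 and 0.25, -0.17 and 0.02 over the 16685. Atp5k, the e subunit of ATP synthase, has a transcript of 371 bases and measured 10, 26.8 and 29.1 CPM with DMSO and 27.8, 11.2 and 32.3 with GSK-126, where DMSO replicate 1 and GSK-126 replicate 2 were the low libraries. Ndufc1, with 1249 bases, held between 32.3 and 35.8 CPM in all 6. The 82 cytosolic ribosomal protein genes tested, which also have short and abundant transcripts, had medians of 0.68, -0.08 and 0.11, so they shared the sign of the subunits in pairs 1 and 2 but lay near 0 in pair 2. Of these genes 0 passed the test, against 3.61% of all genes tested. The part of transcript length in the subunit values was not tested.

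**Figure D5:**
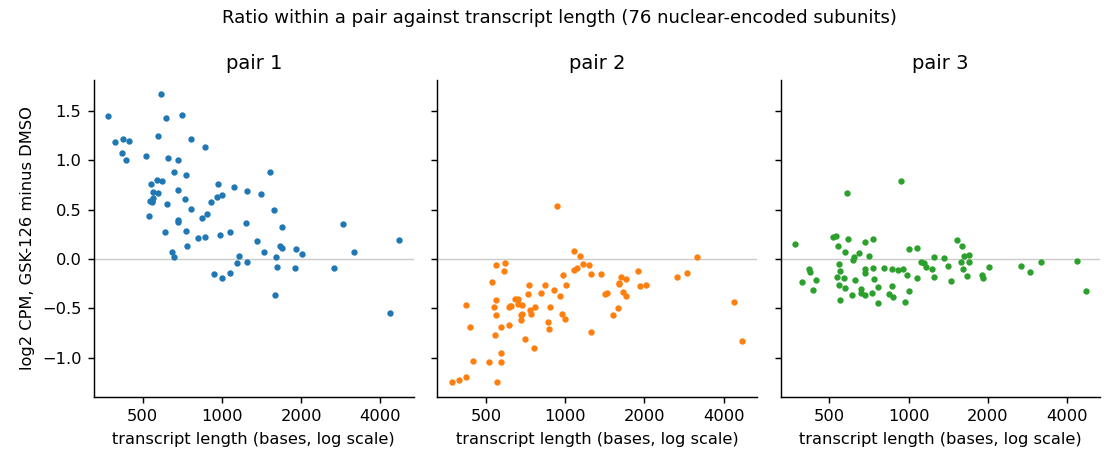
Log2 ratio of GSK-126 to DMSO within each replicate pair (vertical) against the length of the principal transcript in bases (horizontal, log scale) for 76 nuclear subunits, 1 panel a pair. Short transcripts lie furthest above 0 in pair 1 (rho -0.66) and furthest below 0 in pair 2 (rho 0.51), and pair 3 shows little of this (rho 0.07).

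Leaving out replicate 1 turned the result for the nuclear subunits. With pairs 2 and 3 alone, 10 of 76 were lower under GSK-126 at the same threshold and 0 were higher, where 2.22% of 16054 genes were lower and 2.89% were higher, and the median log2 fold change was -0.26 with 71 negative. The 10 were Uqcrh (-0.49, SE 0.109, adjusted p = 0.0159), Cox6a1 (-0.49, adjusted p = 0.0159), Atp5g1 (-0.57, adjusted p = 0.0186), Ndufa4 (-0.43, adjusted p = 0.0195), Cox4i1, Cox5b, Uqcr10, Cox8a, Uqcr11 and Atp5g3, the last 6 with edgeR adjusted p from 0.0307 to 0.0499. Ndufa4 was the only one listed here with complex I, and the other 9 belong to complexes III, IV and V. In the same fit mt-Nd5 (0.43, adjusted p = 0.0129) and mt-Nd4 (0.37, adjusted p = 0.0317) were higher. Without replicate 2 the nuclear median was 0.19, with 59 of 76 positive, and without replicate 3 it was 0.02, and neither fit called a subunit. The direction of the nuclear subunits thus rested on which pairs were used. In the fits that left out a replicate, the limit of 1 CPM in at least 3 libraries was applied to the remaining libraries. With fewer libraries the spread of each gene is less well measured. The 7 mitochondrial genes kept a positive median in each of these fits, at 0.24, 0.12 and 0.15. The fits have pairs in common and the 7 genes share the same libraries, so these medians are not independent. In pair 1 alone the median of the 7 was -0.03, with 3 of 7 higher.

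Many nuclear subunit promoters are known to carry sites for NRF1, ETS factors such as GABP, and YY1, and the promoters were searched because these genes varied together over the libraries. In RefSeq (GRCm38.p6), 68 of the 85 nuclear members had a promoter window of 250 bases before to 50 after a start, 2 of them under another symbol, with 73 windows in all. The NRF1 core GCGCATGC, searched on both strands, was found in 13.7% of them and in 2.71% of 32851 windows of all genes. The ETS core CCGGAAG was found in 21.9% and 8.86%, and the YY1 core AAGATGGC in 13.7% and 2.75%, and 41.1% of the members' windows held any of the 3, against 13.3%. A match is a run of letters and not a measured site. The windows of 2 genes with large swings, Atp5k at chr5:108434350-108434649 (minus strand) and Cox6a1 at chr5:115348909-115349208 (minus strand), are printed with that of the steady gene Sdhb at chr4:140961021-140961320 (plus strand), each 5′ to 3′ on the strand of the gene. Capitals mark NRF1 and ETS matches, and where NRF1 matches on both strands overlap the capitals run on.
Atp5k: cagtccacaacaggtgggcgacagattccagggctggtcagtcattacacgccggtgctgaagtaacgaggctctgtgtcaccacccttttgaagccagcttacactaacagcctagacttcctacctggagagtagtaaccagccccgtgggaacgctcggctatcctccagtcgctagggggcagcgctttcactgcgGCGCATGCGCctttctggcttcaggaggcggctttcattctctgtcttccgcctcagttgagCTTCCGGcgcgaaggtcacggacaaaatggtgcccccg
Cox6a1: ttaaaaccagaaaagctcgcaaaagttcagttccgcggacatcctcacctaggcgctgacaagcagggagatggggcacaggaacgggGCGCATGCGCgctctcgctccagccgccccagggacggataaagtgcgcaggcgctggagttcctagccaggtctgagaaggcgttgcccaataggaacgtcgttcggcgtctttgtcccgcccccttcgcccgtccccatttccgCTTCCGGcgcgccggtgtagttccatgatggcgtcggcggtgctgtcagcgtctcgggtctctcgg
Sdhb: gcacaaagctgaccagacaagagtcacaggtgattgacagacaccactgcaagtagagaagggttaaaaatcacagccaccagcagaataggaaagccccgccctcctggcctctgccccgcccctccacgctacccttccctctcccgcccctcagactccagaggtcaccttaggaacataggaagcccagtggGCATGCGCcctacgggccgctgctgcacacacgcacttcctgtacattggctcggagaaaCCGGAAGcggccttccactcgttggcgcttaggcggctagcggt
All 3 windows hold both an NRF1 and an ETS match. Over the 6 libraries Sdhb measured 71.1 to 83.8 CPM and Cox6a1 136 to 299 CPM. The 3 genes were picked after their values were seen, and the part of these motifs in the levels was not tested.

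Other genes of the pathway were tested in the same fit, in which 3.61% of all genes passed. At that share few calls would be expected in lists of 11 to 75 genes. None of 51 tested assembly factors, 11 regulators of mitochondrial biogenesis, 34 genes of mitochondrial DNA and RNA metabolism, 18 genes of the tricarboxylic acid cycle or 75 genes of the mitochondrial ribosome passed the test in either direction, and the medians of these lists lay between -0.08 and 0.01. The lowest edgeR adjusted p among the 5 lists was 0.11. A further list of genes outside the rule had 5 tested: Ndufab1, Ndufb1-ps, Cyc1, Usmg5 and Cox17, a copper chaperone rather than a subunit. They had 0 calls and a median of -0.08, and their median ratios in pairs 1, 2 and 3 were 0.30, -0.48 and -0.13. Of 19 glycolysis genes 1 rose and 0 fell, with a median of 0.14. It was Slc2a1, the main glucose transporter of the blood-brain barrier and glia, at 26.8, 27.9 and 26.6 CPM with DMSO and 42, 43.1 and 43.4 with GSK-126 (0.66, SE 0.134, adjusted p = 0.021), with no overlap between the groups. Of 13 genes of the hypoxia response 3 rose and 0 fell, with a median of 0.09. The 3 were Adm, which encodes the vasodilator adrenomedullin (1.06, edgeR adjusted p = 0.0041), Ndrg1 (0.95, adjusted p = 0.00976) and the lactate exporter Slc16a3 (0.89, adjusted p = 0.0256). Ndrg1 had overlapping groups, at 52.3, 21.1 and 81.8 CPM with DMSO and 138, 41.1 and 115 with GSK-126. Negative values without a call were those of Car9 (-0.46), Ankrd37 (-0.29), Kdm3a (-0.12), Bnip3 (-0.09), Egln1 (-0.05) and Egln3 (-0.03).

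Markers of cell types moved in these cultures, and their part in the subunit values was not tested. For comparison with the counts that follow, 3.61% of all genes tested passed. Of 15 granule neuron genes 6 fell and 0 rose, with a median of -0.28. Among the 6 were the vesicular glutamate transporter Slc17a7 (-2.16, edgeR adjusted p = 0.000272), Snap25 (-1.09), Cbln3 (-1.45) and Cbln1 (-0.53). The list did not move together: Tubb3 (0.36), Slc17a6 (0.29), Gap43 (0.13) and Pax6 (0.04) had positive values and did not pass. Of 8 genes of GABAergic neurons 2 fell, among them Slc32a1 (-0.58), while Pvalb (0.36) and Calb1 (0.35) were positive and did not pass. Of 10 mural cell genes tested 5 rose, including Anpep, Cspg4, Pdgfrb and Acta2, with a median of 0.63. Microglial genes rose in 4 of 11, among them Cd68, C1qb and C1qc (median 0.56), but not Cx3cr1 (-0.02) or Aif1 (-0.08). Fibroblast genes rose in 3 of 9 (Fn1, Igf2 and Col1a1, median 0.26). Endothelial genes rose in 1 of 8 (Flt1, median 0.38), while Cdh5 (-0.30) and Slco1a4 (-0.49) were negative and did not pass. Astrocyte genes rose in 1 of 11 (Gdf10, median 0.04), while Fabp7 (-0.37), Slc4a4 (-0.28), Slc1a3 (-0.23) and Aqp4 (-0.21) were negative and did not pass. None of 11 oligodendrocyte or 12 cell cycle genes passed. Over 12 mural genes the summed level was 773 to 1263 CPM with DMSO and 1328 to 1772 CPM with GSK-126, which do not overlap. Most of this sum came from Acta2 (273 to 505 and 555 to 699.98 CPM) and Tagln (171 to 347 and 388 to 490.39 CPM), so it mainly follows them. Among single genes tested, 10.8% had groups that did not overlap. Over 12 microglial genes the summed level was 522 to 967 and 683 to 1334 CPM, with Trem2 at 0 in every library. The astrocyte sum was highest in both replicate 1 libraries (8280 and 8410 CPM) and lowest in both replicate 2 libraries (2961 and 2970 CPM), and the granule neuron sum was lowest in replicate 1 of both groups (6870 and 4876 CPM).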

How the data were processed

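Each library came as 1 deposited table of raw counts, which the authors had made by counting reads over exons with HTSeq, with no normalization and replicates kept apart. The submitters' processing notes name Trimmomatic 0.38 and STAR 2.7.2b and the build mm10, and the study's methods give GRCm38.p4. Paired reads of poly(A) RNA were used. Between 39.1% and 41.6% of fragments were assigned to a gene, 9.54% to 10.4% aligned to several places and 44.8% to 46.7% lay over no exon. The 5 summary rows without a gene name entered neither library sizes nor tests.

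The members and gene lists were chosen with earlier results of these data known. Genes with at least 1 CPM in at least 3 of 6 libraries were kept, which left 16685, and TMM scaling was used. Differences were tested with edgeR 4.0.16 (R 4.3.3, glmQLFit, legacy mode, no robust option), taking treatment and replicate number as terms and Benjamini-Hochberg adjustment over all genes, at a threshold of 0.05. The labels number the replicates, and deviations from the group means correlated by 0.335, 0.484 and 0.497 for same-numbered libraries and by -0.393 to -0.015 for others, so the numbers were taken to pair the libraries. A replicate is a culture from pooled litters according to the study's methods. DESeq2 1.42.0, limma 3.58.1, other scalings and filters, no block and leaving out each pair were tried. Log2 CPM used a prior count of 2. A gene without reads has a floor of 3 counts (0.249 to 0.372 CPM), which covers counting error only. The fits were tested on simulated data. No libraries agreed within sampling noise (lowest chi-square per degree of freedom 9.98, for pair 3). By this measure pair 2 followed at 13.8, but pair 1 stood at 22.9. DMSO replicate 1 lay closer to DMSO replicate 3 (16.8), and GSK-126 replicate 1 closer to GSK-126 replicate 3 (15.3). The pairing of replicate 1 thus rests on its number and on the correlation of 0.335. Centring each group on its own mean also pushes the correlations of differently numbered libraries down.

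Named were all mitochondrial members, in each complex the genes with the 2 highest and 2 lowest fold changes and the 2 highest levels per exon length, the isoform groups, the members below the filter, and called genes of other lists (up to 4 each, of which 2 are not reported here). Ndufb5, Ndufc1, Atp5k, Cox6a1 and the calls without replicate 1 were singled out after their values were seen, as were the printed sequences. Exons and transcripts come from GENCODE M21, promoter windows from RefSeq, and sequence stretches of 100 bases were compared between annotated transcripts.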

Additional observations from a re-analysis of the deposited data

How the results depend on the processing

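Of the 86 subunits tested, 0 were called under any other scaling, filter or tool, or without the replicate block, in which the nuclear median ran from -0.05 to -0.02 and the mitochondrial median from 0.14 to 0.16. Over all genes, 603 calls became 0 without the replicate block (996 at an unadjusted p under 0.05) and 1136 without a filter, and the block changed no call of a subunit. Leaving out 1 pair gave from 253 to 820 calls over all genes, from 0 to 10 nuclear calls and from 0 to 2 mitochondrial calls. The 10 and the 2 came without replicate 1, and the other leave-outs called 0 subunits. Signs were followed for the tested mitochondrial genes and the nuclear genes with the 2 highest and 2 lowest fold changes per complex. Among these the log2 fold change then changed sign for Sdha (-0.13 to 0.13), Sdhd (-0.08 to 0.15), Uqcrh (-0.49 to 0.11), Uqcrfs1 (-0.07 to 0.11), Uqcrq (-0.19 to 0.55), Cox8a (-0.68 to 0.29), Atp5e (-0.30 to 0.53), Atp5mpl (-0.33 to 0.69), mt-Co2 (-0.31 to 0.01), mt-Co3 (-0.09 to 0.19) and mt-Nd6 (-0.04 to 0.23). Other subunits also changed sign without replicate 1, among them Atp5k (from 0.13 to -0.48), Cox5b (from 0.04 to -0.48) and Atp5g2 (from 0.08 to -0.03). The cause was not tested. With 3 pairs the median SE was 0.164 for nuclear and 0.113 for mitochondrial subunits, which limits the size of change that could be detected.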
